A study of Rattus norvegicus with 6 samples.

Results

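The cathepsins Ctsd, Ctsb, Ctsl, Ctss, Ctsh and Ctsc, the asparaginyl endopeptidase Lgmn, the cathepsin inhibitor Cst3 (cystatin C) and the lysosomal glycoprotein Creg1 were followed in whole adrenal gland of 2 inbred rat strains. Members were taken by annotation: every probe set of the array's table that named 1 of these 9 genes was kept. That gave 12 probe sets out of 8740 on the array without controls. They stood for 8 genes of the 4736 with a probe set of their own, and Lgmn had no probe set in the table used here. Of the 12, 11 were bright enough to be tested, and the remaining Ctsc probe set was not. The genes were chosen by role and name, with their differences in intensity between the strains in these same data already known, so their values, and whether limma called them in the fit over all probe sets, are given as a description only. No p is given for a member, and nothing is read from its call.

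The groups were the spontaneously hypertensive rat, SHR, with 3 arrays, and its normotensive comparison strain, the Wistar-Kyoto rat or WKY, also with 3. The labels give no treatment, transgene, age or sex, nor whether replicates were separate animals, so the p-values cover a spread between replicates that may be technical. Total RNA was read on Affymetrix RG-U34A arrays, on which a probe set is a group of short oligonucleotides for 1 transcript, and the deposited value is 1 intensity on a linear scale.

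Cathepsins are proteases made as inactive precursors, sorted to lysosomes by mannose-6-phosphate tags and switched on by the acid there. Ctsb, Ctsl, Ctss, Ctsh, Ctsc and Lgmn cut with an active-site cysteine, whereas Ctsd is an aspartic protease. Cst3 is a secreted protein that binds and blocks cysteine cathepsins but not Ctsd. In the adrenal gland lysosomes serve steroid-making cortical cells, which draw cholesterol from internalised lipoproteins, the catecholamine-storing chromaffin cells of the medulla, and resident macrophages.

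Many lysosomal genes carry the CLEAR element, a palindrome read by the transcription factor TFEB and built round the E-box CACGTG, so the windows upstream of the members are of use beside their values. Windows of 250 bases before the annotated start of 8 of the 9 genes, all but Ctsb, were read from RefSeq (GRCr8). The letters searched, on both strands, were the E-box CACGTG, the GC box GGGCGG and the CCAAT box CCAAT, none of which overlaps another in the windows shown. Printed 5′ to 3′ on the gene's strand, with all matches in capitals, are the windows of Creg1, the member with the widest difference, of Ctsd, higher in SHR by each of its probe sets, and of Cst3, lower by each.
Creg1, chr13:80552571-80552820, plus strand: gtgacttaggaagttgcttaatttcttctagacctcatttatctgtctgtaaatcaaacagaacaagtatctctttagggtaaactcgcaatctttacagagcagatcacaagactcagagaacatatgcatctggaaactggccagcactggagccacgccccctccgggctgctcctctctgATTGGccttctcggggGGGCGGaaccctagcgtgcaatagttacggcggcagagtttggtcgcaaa
Ctsd, chr1:206968822-206969071, minus strand: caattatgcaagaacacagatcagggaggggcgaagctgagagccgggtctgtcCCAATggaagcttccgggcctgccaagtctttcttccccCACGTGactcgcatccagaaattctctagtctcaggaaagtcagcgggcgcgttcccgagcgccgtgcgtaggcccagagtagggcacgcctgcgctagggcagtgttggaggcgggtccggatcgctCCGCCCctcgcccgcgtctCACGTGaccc
Cst3, chr3:156793938-156794187, minus strand: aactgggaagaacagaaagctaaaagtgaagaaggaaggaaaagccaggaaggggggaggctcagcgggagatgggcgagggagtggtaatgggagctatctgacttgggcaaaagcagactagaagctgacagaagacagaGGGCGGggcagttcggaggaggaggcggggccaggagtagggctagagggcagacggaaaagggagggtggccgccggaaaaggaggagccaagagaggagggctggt
Ctsd was the 1 gene of the 8 with an E-box. It held 2, beginning 157 and 10 bases before the start, against 5.59% of 33469 rat windows of the same length with any. The nearer one lay in the octamer TCACGTGA, the centre of the CLEAR palindrome, which 0.657% of the windows held. No other member's window held it. The Creg1 window had a CCAAT box 66 bases and a GC box 50 bases before the start. The Cst3 window had a GC box 108 bases before it. GC boxes were in 30.5% of all windows and CCAAT boxes in 34% of them. The windows of Ctss and Ctsh held none of the 3 motifs. A match in letters describes the window and is not a site shown to be bound.

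The arrays were alike in level, with median intensities from 798.3 to 899.5, and the deposited values had already been scaled. The cortex genes Star and Cyp11a1 and the medulla genes Th and Pnmt were all bright, with means from 12189 to 89229 in each strain. The medulla list was lower in SHR in part: 8 of its 9 genes had a negative sign, with a median log2 difference of -0.53, and their summed intensity was 42065 to 53446 in SHR and 56556 to 65270 in WKY. Of the 9 limma called 0 higher and 1 lower, Dbh, the enzyme that makes noradrenaline, named after its values were seen, at -1.29 ± 0.15 (SE; adjusted p = 0.00548). Over all 3144 tested genes limma called 0.763% lower. Pnmt, which makes adrenaline, was below WKY in each SHR array, at -0.57 ± 0.13 (limma adjusted p = 0.0764). Th, at -0.02 ± 0.18, differed little between strains. So did Chgb and Ddc, also named after their values were seen, at -0.08 ± 0.15 and 0.14 ± 0.14. Features of single arrays bear on the values that follow. In SHR replicate 2 the hexokinase control had a 3'/5' signal ratio, a sign of RNA quality that is higher in degraded RNA, of 4.21 against 1.96 to 2.54 elsewhere. In WKY replicate 2 the leukocyte gene Coro1a read 2432.7 against 68.6 to 182.1 elsewhere, a gene picked after its values were seen. The settings files put SHR replicate 1 with the 3 WKY arrays in a first hybridization run and SHR replicates 2 and 3 in a second. Over the 5244 probe sets tested, limma (differences in log2 of intensity plus a pseudocount of 181.5, Benjamini-Hochberg adjusted p under 0.05) called 1.95%, and this share fell to 0.381% with the run as a block.

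The members divided by direction. Creg1 and the proteases Ctsd and Ctsb were higher in SHR, while Cst3, Ctsh and Ctss were lower, and Ctsl and Ctsc are described without a direction, 1 of the Ctsl probe sets overlapping between strains and Ctsc being scattered. Of the 11 tested probe sets limma called 3, 1 higher (Creg1) and 2 lower (Cst3). Over all tested probe sets it called 1.95%, 1.07% higher and 0.877% lower. The strains did not overlap in 9 of the 11, 4 of them higher and 5 lower in SHR, where 20.7% of all tested probe sets were apart, 10.2% higher and 10.5% lower. The median size of the log2 difference, sign ignored, was 0.53 over the 11 and 0.22 over all tested probe sets. Their median signed difference was -0.23 against -0.007. Because the members were chosen with these differences known, nothing is read from those counts.

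**Figure D1:**
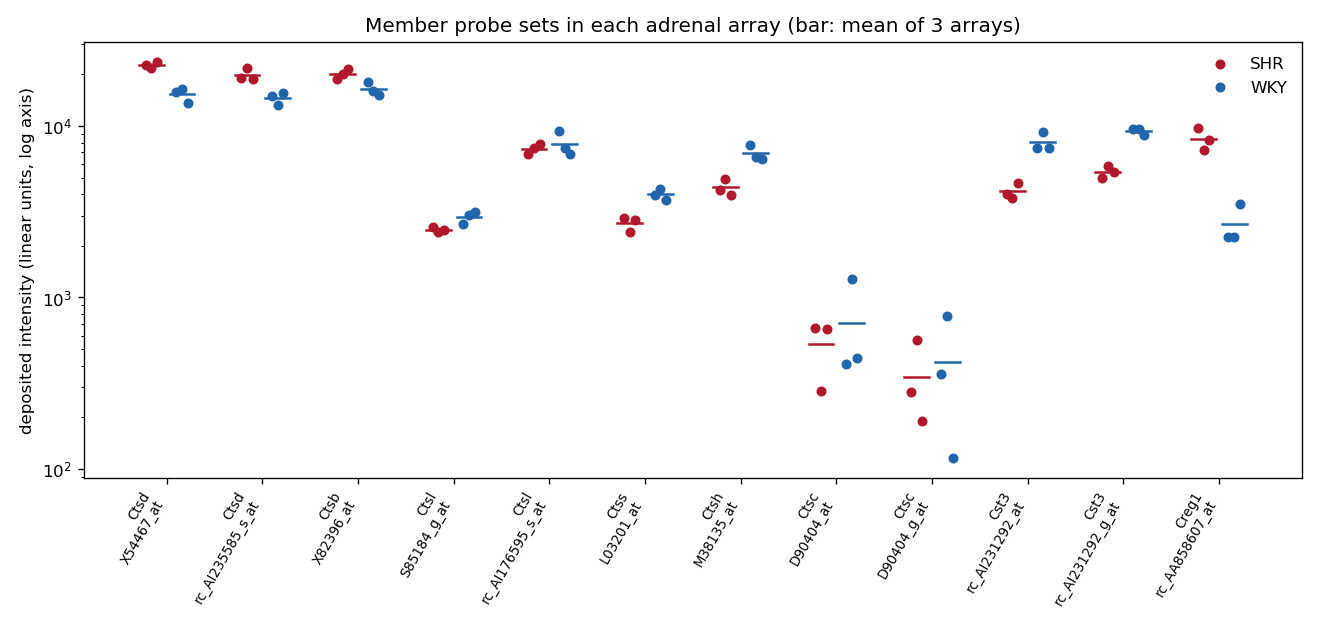
Deposited intensity (linear units on a log axis) of the 12 probe sets of Ctsd, Ctsb, Ctsl, Ctss, Ctsh, Ctsc, Cst3 and Creg1. Each point is 1 array, red for SHR and blue for WKY, and each bar is the mean of 3 arrays; the strains are separate for Ctsd, Ctsb, Ctss, Ctsh, Cst3, Creg1 and 1 of the Ctsl probe sets, and the 2 Ctsc probe sets at the bottom are the most scattered.

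Creg1 encodes a small glycoprotein that is secreted and taken up to lysosomes, and it gave the widest difference of the group. Its probe set rc_AA858607_at read 9778.8, 7275.1 and 8264.4 in SHR replicates 1, 2 and 3, and 2240.4, 2241.5 and 3510.6 in the WKY replicates. Every SHR array was above every WKY array, and the lowest SHR value exceeded the highest WKY value by 107%. The means were 8439 ± 1261 in SHR and 2664 ± 733 in WKY (SD, n = 3 each), a ratio of 3.17. On the log2 scale with the pseudocount, used for all differences here, SHR exceeded WKY by 1.62 ± 0.21 (SE). The Creg1 call was lost with the hybridization run as a block, where the difference was 1.84, and in the first run alone, also at 1.84. In both of these fits SHR replicate 1, the highest of the 6 arrays for Creg1, stands by itself for its strain.

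Among tested probe sets with 1 gene symbol, 5 were closest to Creg1 by Pearson correlation of log2 values over the 6 arrays, out of 4311 compared. They were Ugt2b1 (0.997), a glucuronosyltransferase, Cpd (0.994), the carboxypeptidase D of the secretory pathway, Akr1c3 (0.993), an aldo-keto reductase, Cyp2a3 (0.993), a cytochrome P450, and Aldh1l1 (0.987), a folate enzyme. All 5 were higher in each SHR array than in any WKY array, by log2 differences from 0.52 (Ugt2b1) to 3.85 (Akr1c3). The arrays form 2 strain clusters, so this measure records in part a shared strain difference. Taken as deviations from the strain means, the correlations with Creg1 were 0.960 (Ugt2b1), 0.929 (Cpd), 0.926 (Akr1c3), 0.946 (Cyp2a3) and 0.865 (Aldh1l1). The 5 were picked by the first measure, which holds the same deviations, so these values are a description only.

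Ctsd, the main aspartic protease of lysosomes, was measured by 2 probe sets that gave the same direction. X54467_at read 22708.6, 21803.0 and 23519.3 in SHR replicates 1 to 3 and 15809.1, 16474.9 and 13652.5 in WKY. The strains were apart, the lowest SHR array standing 32.3% above the highest WKY array. Its means were 22677 ± 859 and 15312 ± 1475 (SD, n = 3 each), with a log2 difference of 0.56 ± 0.12 (SE). By rc_AI235585_s_at the SHR arrays were at 18953.4, 21757.8 and 18861.9 and the WKY arrays at 15039.6, 13206.9 and 15656.2. These too did not overlap, with a difference of 0.44 ± 0.12. Neither Ctsd probe set was among the calls.

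Ctsb, a cysteine protease that acts as an endopeptidase and also removes dipeptides from the C-terminal end of proteins, differed by less. X82396_at read 18710.8, 20112.3 and 21528.6 in SHR and 17977.7, 15943.6 and 15199.2 in WKY. The strains were apart by a narrow margin, the lowest SHR array exceeding the highest WKY array by 4.08%. Means of 20117 ± 1409 and 16374 ± 1438 (SD, n = 3 each) gave a log2 difference of 0.30 ± 0.12 (SE), and 0.19 when the run was a block. SHR replicate 1 was the lowest of the SHR arrays for Ctsb. Ctsb was not called.

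The cysteine protease inhibitor Cst3 went the other way. Its probe set rc_AI231292_at read 4019.0, 3800.7 and 4621.2 in SHR replicates 1 to 3 and 7392.2, 9245.5 and 7456.0 in WKY. Each WKY array was above each SHR array, the nearest being SHR replicate 3 and WKY replicate 1. The means were 4147 ± 425 in SHR and 8031 ± 1052 in WKY (SD, n = 3 each), so that the SHR mean was 0.516 of the WKY mean, and the log2 difference was -0.92 ± 0.15 (SE). The companion probe set rc_AI231292_g_at, built on the same expressed sequence, read 4949.0, 5878.7 and 5418.0 in SHR and 9595.3, 9565.2 and 8895.0 in WKY. It showed the same separation, at -0.77 ± 0.13, but shares its source sequence with the first and is no independent measure. Both Cst3 calls were lost with any 1 of the 6 arrays left out, at differences from -0.998 to -0.82 for the first and from -0.83 to -0.71 for the second. They were also lost with the run as a block, where the differences were -0.96 and -0.89.

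Ctsh, an aminopeptidase among the cysteine cathepsins, was lower in SHR. M38135_at read 4250.2, 4898.3 and 3980.3 in SHR and 7775.2, 6607.7 and 6382.6 in WKY. No array of 1 strain reached those of the other, and the lowest WKY value was 30.3% above the highest SHR value. Its means were 4376 ± 472 and 6922 ± 748 (SD, n = 3 each) and its log2 difference was -0.64 ± 0.15 (SE), which was not called.

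Ctss, the cathepsin of antigen-presenting cells that trims the invariant chain Cd74 from class II molecules, was also lower. L03201_at read 2894.2, 2408.3 and 2818.5 in SHR against 3957.4, 4304.1 and 3706.8 in WKY. The strains were again apart, by 28.1% between nearest arrays, and the highest value was that of WKY replicate 2. The means were 2707 ± 261 and 3989 ± 300 (SD, n = 3 each), the log2 difference was -0.53 ± 0.15 (SE), and Ctss was not called. Without WKY replicate 2 the difference was -0.48.

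Ctsl, a broad endopeptidase that also works in secretory granules, showed the narrowest differences. By rc_AI176595_s_at the SHR arrays were at 6894.5, 7429.7 and 7810.3 and the WKY arrays at 9348.0, 7446.4 and 6891.1. These overlapped, and the log2 difference of -0.09 ± 0.15 (SE) changed sign, to 0.04, without WKY replicate 1. By S85184_g_at SHR read 2571.3, 2403.9 and 2459.3 and WKY 2677.8, 3009.1 and 3134.2. That probe set kept the strains apart by 4.14% at a difference of -0.23 ± 0.15, so the 2 Ctsl probe sets differ on whether the arrays overlap.

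Ctsc, which activates the granule proteases of leukocytes, was dim and scattered. D90404_at read 664.8, 285.5 and 658.2 in SHR and 408.5, 1285.1 and 441.0 in WKY. The highest value was again WKY replicate 2, the strains overlapped, and the log2 difference of -0.23 ± 0.43 (SE) turned to 0.06 with the hybridization run as a block and to 0.05 without SHR replicate 2. D90404_g_at, which was too dim to be tested, read 280.9, 567.3 and 189.8 in SHR and 356.5, 781.9 and 115.3 in WKY. WKY replicate 2 was highest there as well, and WKY replicate 3 lay below the pseudocount. A Ctsc difference smaller than this scatter could not be seen with 3 arrays a strain.

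**Figure D2:**
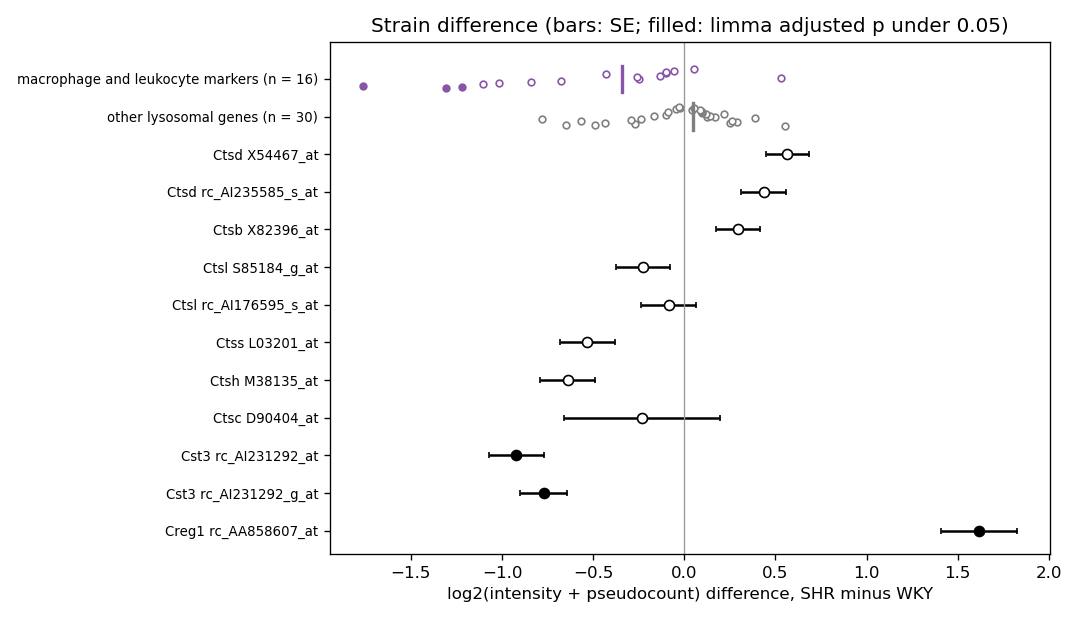
Difference between strain means, SHR minus WKY, of log2(intensity + 181.5) for the 11 tested member probe sets (black, bars are limma standard errors), 30 other lysosomal genes (grey) and 16 macrophage and leukocyte markers (purple), with list medians as vertical ticks. Filled points passed an adjusted p of 0.05; Creg1 stands alone at 1.62, Cst3 lies at -0.92 and -0.77, and no other lysosomal gene is filled.

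The other lysosomal genes on the array showed no call in either direction. Of 98 such genes listed, 35 had a probe set and 30 were tested by their brightest. By limma 0 rose and 0 fell at an adjusted p under 0.05, beside 1.65% of the 3144 genes tested, 0.891% higher and 0.763% lower. Of the 30, 4 passed at an unadjusted p under 0.05, 1 higher and 3 lower, where 409 of all 3144 tested genes did, 6.30% higher and 6.71% lower. Their median log2 difference was 0.05, and that of all tested genes was -0.01. The summed intensity of the 30 overlapped between strains, from 316972 to 353953 in SHR and from 326632 to 335447 in WKY.

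The 4 of smallest p among them were spread over both directions. Ppt1, the palmitoyl-protein thioesterase, stood at 6236 ± 611 in SHR and 4182 ± 144 in WKY (SD, n = 3 each), a log2 difference of 0.55 ± 0.14 (SE; limma adjusted p = 0.108). Cd63, a tetraspanin of late endosomes, was at 10262 ± 562 and 16425 ± 3410 (-0.65 ± 0.16; limma adjusted p = 0.109). Arsb, which removes sulphate from glycosaminoglycans, was at -0.49 ± 0.17 (0.238). Lipa, the acid lipase that frees cholesterol from lipoprotein esters, was at -0.27 ± 0.12 (0.353). None of the 4 passed, and in each the arrays of the strains did not overlap. Lipa was lower by all 3 of its tested probe sets, from -0.71 to -0.27.

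The cathepsins Ctsk, Ctsj and Ctse also had a probe set and are given because they complete the family, a choice made after their values were seen. Ctsk, the collagen-degrading cathepsin, was at 645 ± 180 in SHR and 1058 ± 374 in WKY (SD, n = 3 each), with overlapping arrays and a log2 difference of -0.57 ± 0.29 (SE; limma adjusted p = 0.430). Ctsj was too dim to be tested, at 534 ± 69.7 in SHR and 322 ± 31.2 in WKY, with each SHR array above each WKY array. Ctse, an aspartic protease, ran from 47.1 to 388.6 over the 6 arrays and was also not tested.

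The other protease inhibitors on the array gave no call. Of 18 listed, 5 had a probe set and 4 were tested, each with a positive sign by its brightest probe set, and limma called 0 (1 at an unadjusted p under 0.05). Cstb, the intracellular cystatin B, was at 14064 ± 2692 in SHR and 12782 ± 1253 in WKY (0.12 ± 0.16 SE, n = 3 each; limma adjusted p = 0.787). Cst8, a cystatin of the reproductive tract, was dim, at 914 ± 16.3 and 537 ± 109 (0.62 ± 0.23; limma adjusted p = 0.275). The differences of A2m, the protease trap alpha-2-macroglobulin, and Kng2, a kininogen, were 0.16 ± 0.15 and 0.14 ± 0.31 (limma adjusted p = 0.703 and 0.879). A dimmer A2m probe set, M23566exon_s_at, had the opposite sign, at -1.10 ± 0.49, and did not pass. Whether Cst3 differed from these genes in its strain difference was not tested.

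Markers of macrophages and other leukocytes, cells rich in Ctss, Ctsh and Ctsc, were lower in SHR in part. Of 41 listed genes 24 had a probe set and 16 were tested, and limma called 0 higher and 3 lower, the class II genes RT1-Ba and RT1-Db1 and the invariant chain Cd74, beside 0.763% of all genes called lower. Their log2 differences were -1.31 ± 0.22, -1.22 ± 0.23 and -1.76 ± 0.33 (SE; limma adjusted p = 0.0297, 0.0403 and 0.0429). The fourth by p, RT1-Da, was at -1.10 ± 0.24 (0.0744). The median over the 16 was -0.34, and 14 had a negative sign. Probe sets of a gene did not always give 1 value: a second RT1-Ba probe set, M22366_at, was at 0.10 ± 0.19, while RT1-Bb, at -0.26 ± 0.24 by its brightest, was called lower by X56596_at, at -2.03 ± 0.24 (limma adjusted p = 0.00548). The 3 calls of the list were down to 0 with the run as a block (5 at an unadjusted p under 0.05).

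The summed intensity of the 16 markers was 36292 to 39125 in SHR and 50509 to 82705 in WKY, so the strains did not overlap. Most of that gap lay in the class II genes and Cd74, 5 in all, whose sum was 15191 to 16608 in SHR and 28299 to 52087 in WKY. The other 11 markers, a split made after the values were seen, summed to 19684 to 23125 in SHR and 21472 to 30618 in WKY, which overlapped, with a median of -0.13 and 0 calls (2 at an unadjusted p under 0.05). No probe set of the list was at 0 in any array. WKY replicate 2 was the highest array in both sums, as it was in Ctss and Ctsc. It was not the highest in Ctsh, where WKY replicate 1 read 7775.2 and WKY replicate 2 read 6607.7. The part of leukocytes in the lower Ctss and Ctsh of SHR was not tested, and in whole gland fewer cells of a type and less RNA per cell cannot be told apart.

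**Figure D3:**
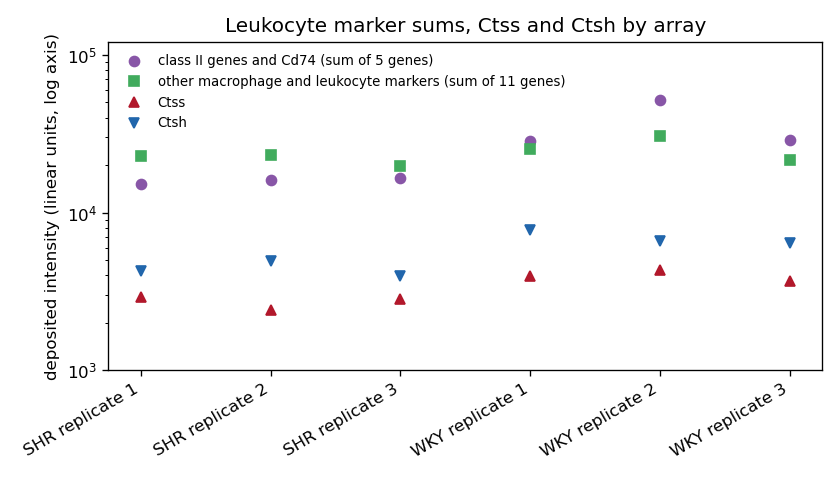
Deposited intensity (linear units on a log axis) by array of the sum of the class II genes and Cd74 (5 genes), the sum of 11 other macrophage and leukocyte markers, and Ctss and Ctsh. The class II sum runs from 15191 to 16608 in SHR and reaches 52087 in WKY replicate 2, the sum of the other 11 markers overlaps between strains, and Ctss and Ctsh are lower in each SHR array.

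Fibroblast and capsule markers, from cells that also secrete Cst3, were lower as well. All 6 tested (Col1a1, Col1a2, Col3a1, Dcn, Lum and Fn1) had a negative sign and limma called 4 lower and 0 higher, beside 0.763% of all genes called lower and 0.891% higher. Their summed intensity was 13825 to 22733 in SHR and 40169 to 58481 in WKY. The arrays low in Cst3 and in these genes were the 3 of SHR, as for any gene lower in that strain. The part of these cells in the Cst3 difference was not tested.

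Some markers of other parts of the gland and of blood also read lower in those arrays, beside the lower Cst3, Ctss and Ctsh. The medulla sum was lower in each SHR array, as given above. The fat marker Cfd, a complement protease of fat cells, was called lower by limma, at -2.00 ± 0.35 (SE; adjusted p = 0.0324), while the summed intensity of the 3 fat markers overlapped, at 8847 to 11338 in SHR and 10272 to 33150 in WKY. Of these 3 fat markers Lpl had the opposite sign, at 0.38 ± 0.32 (limma adjusted p = 0.656). The red blood cell markers summed to 34587 to 39859 in SHR and 43088 to 99452 in WKY, with 0 of 2 called. The beta-globin gene Hbb was at -0.95 ± 0.28 (limma adjusted p = 0.160). The 4 liver markers, 0 of them called, summed to 3078 to 4362 in SHR and 4875 to 5025 in WKY, but only 2 had a negative sign. Serpina1 was at -1.36 ± 0.41, while Ttr was higher in each SHR array, at 0.38 ± 0.19 (limma adjusted p = 0.167 and 0.414). The cortex, endothelium and kidney sums overlapped between strains. Of the 6 cortex genes, 0 of them called, 2 had a positive sign and 4 a negative 1. The 2, Inha and Nr5a1, were higher in each SHR array, at 0.59 ± 0.13 and 0.34 ± 0.15 (limma adjusted p = 0.0732 and 0.367). Cfd, Lpl, Hbb, Serpina1, Ttr, Inha and Nr5a1 were named after their values were seen. The part of these cells in the member differences was not tested.

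**Figure D4:**
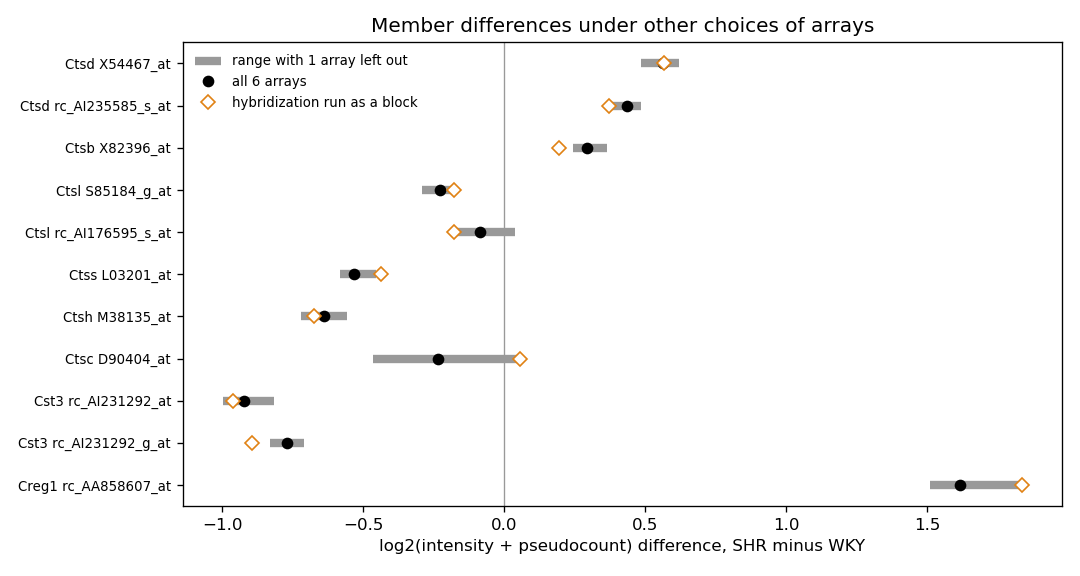
Log2 difference, SHR minus WKY, of the 11 tested member probe sets with all 6 arrays (black circles), with the hybridization run as a block (open diamonds), and the range over fits with 1 array left out (grey bars). For Ctsc the range lacks the fit without WKY replicate 2, in which it was too dim to be tested. Creg1, Ctsd, Ctsb, Ctss, Ctsh, Cst3 and the Ctsl probe set S85184_g_at stay on 1 side of 0, while the other Ctsl probe set and Ctsc reach across it. Those that stay are the ones whose arrays did not overlap between strains, so no fit shown could have moved them across 0.

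The directions were also read without each array and with the run as a block, since run and strain were partly joined. In each of these fits Creg1, Ctsd and Ctsb stayed higher and Ctss, Ctsh and Cst3 lower. The strains did not overlap in any probe set of these genes, so these fits could not have turned a sign. They are no test of the directions or of the run. Blocking on the run left no member probe set called by limma, in a fit that sets SHR replicate 1 alone against the WKY arrays. The same holds for leaving out SHR replicate 2, the array with the high hexokinase ratio, and the part of RNA quality was not tested. Without SHR replicate 2 Creg1 stood at 1.72 and the Ctsd probe sets at 0.59 and 0.37. Cst3 was at -0.86 and -0.83, Ctsh at -0.72 and Ctss at -0.45. Ctsc, whose arrays overlapped between strains, turned to 0.05.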

How the data were processed

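Adrenal RNA of 3 SHR and 3 WKY samples was grouped by the strain and replicate in each title. The values the authors deposited are linear intensities of each probe set on each array, from 0.6 to 123784.8. How they were summarised and scaled is not given in the sources used here. Trimmed means agreed within 0.0118%, so values were used as deposited. A settings file per array, deposited by the authors, holds other values (chip lot, station, module and run times) and gave the hybridization runs, split at a gap of over 60 minutes.

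Gene names came from GEO's table for the array (7006 with 1 symbol, 308 with several, 1426 with none, after 59 controls were left out), with symbols checked through the RefSeq gene table of GRCr8, where 6994 matched. Values became log2(intensity + 181.5), where the added constant is their 20th percentile, and this understates changes of dim probe sets. Those with a mean above the 40th percentile were tested with limma 3.58.1 in R 4.3.3 (eBayes with a trend, two-sided, no covariate) and adjusted by Benjamini-Hochberg over 5244. A gene on a list was represented by its brightest probe set. The fit was tested on simulated data with independent noise, no run effect and 200 of 5244 probe sets changed. There it called 7.16% of log2 changes of 0.5, 46.3% of those of 1 and 86.5% of those of 2, and 5.07% of its calls were false. These shares need not hold for the real arrays, where run and strain were partly joined. Even in the simulation most changes of 0.5 were missed, so a missing call at a difference near 0.5 does not show that the strains were alike.

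The members and lists were chosen with earlier results of these data known. Named were all member probe sets, the called genes and up to 4 of smallest p of the lysosomal, inhibitor and leukocyte lists, the 5 genes most like Creg1, and Star, Cyp11a1, Th and Pnmt. The lists of other tissues served as marker checks: limma called 0 of 6 cortex, 1 of 9 medulla, 0 of 2 endothelium, 1 of 3 fat, 0 of 3 kidney, 0 of 4 liver and 0 of 2 red blood cell genes, both calls being lower in SHR, with 1, 5, 0, 2, 0, 1 and 1 at an unadjusted p under 0.05, the cortex gene higher and the others lower. Alternatives covered normalization, pseudocount, filter, variance model, blocks and left-out arrays.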

Additional observations from a re-analysis of the deposited data

How the results depend on the processing

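Of 186 alternative values of the member differences, 184 moved by less than 1 SD between replicates. Many of these could not move: the filter, the variance model and the replicate block do not alter a difference. The run block and the first run alone give the same difference. The count is thus no measure of stability. The Cst3 probe set rc_AI231292_g_at moved from -0.77 to -0.89 with the hybridization run as a block and in the first run alone. The 102 calls over all probe sets became 60 without an intensity trend, 53 with the replicate block, 20 with the run blocked, 1 within its first group of arrays and 36 to 59 with 1 array left out; 94 to 109 were called under each scaling, under each pseudocount, with robust eBayes and with the stricter filter, and 83 with no filter. The 3 member calls became 1 without a trend, 1 with the replicate block and 1 with any array left out. Creg1 was the 1 wherever 1 was left. No member call was left with the run as a block or in the first run alone, where SHR replicate 1 stands by itself for its strain. The members were chosen with these differences known, so nothing is read from these counts. Scaling to the same median left 2. The 3 leukocyte marker calls became 1 with arrays scaled to the same median, 1 with no filter, 0 without a trend, with the replicate block, with the run blocked and with only the first run (6, 5, 5 and 5 at an unadjusted p under 0.05), and 0 to 2 with 1 array left out. The 0 calls among other lysosomal genes and among inhibitors held under all 18 alternatives. Fits with fewer arrays are less precise, and the cause of the lost calls was not tested. Replicate numbers did not pair the arrays: deviations of same-numbered arrays correlated at 0.0009, 0.010 and 0.071, and SHR replicates 1 and 2 correlated best with another number. The number of arrays limits precision.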
